A study of Mus musculus with 6 samples.

Results

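Microglia and other macrophages carry transcripts that mark them in brain tissue, some of which other cells make as well, and 33 such genes were followed here in the embryonic mouse forebrain. They were taken by symbol from a fixed list of genes known to mark these cells. All 33 were found among the 55471 gene identifiers of the count tables, of which 30928 had a count in at least 1 library. Microglia arise from yolk sac progenitors, enter the neural tube from outside and depend on the receptor CSF1R and the transcription factor PU.1. Border-associated macrophages of the same origin settle in the meninges and around vessels. Both clear dead cells during brain development, and their products include the complement protein C1q, lysosomal proteases and receptors for lipids and sialic acids.

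RNA was sequenced from the rostral-most telencephalic primordium at E11.5 in 3 control and 3 Rx-Dicer samples. Control embryos are labelled WT and are described in the protocol as carrying floxed Dicer (Dicer1tm1Bdh/J) without Cre. Rx-Dicer embryos are labelled RxCre-Dicer F/F and carried the same floxed alleles with Rx3-Cre. The floxed line was kept on C57BL/6 and the Cre line on CD1. Cre stands under regulatory sequences of Rax (Rx) and is active in the anterior neural fold and later in the telencephalon, most strongly at its rostral and ventral side, so the deletion is confined to Cre-active cells. Whether a library came from 1 embryo or a pool is not given, and p-values measure only the spread between these samples. Libraries held 34471501 to 48373468 counts on genes, at which 3 counts are worth 0.0620 to 0.0870 CPM (counts per 1000000 counts on genes), for counting error only.

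Dicer1, the targeted gene, had 6355, 7070 and 6270 normalised counts (counts divided by DESeq2 size factors) in the control libraries, and 4777, 7002 and 4644 in the Rx-Dicer libraries. By this measure the library labelled Rx-Dicer 2 could not be set apart from the controls, and the other 2 lay below all of them. Reads from exons outside the floxed segment are counted too, so this total moves only in part with a deletion. The log2 fold change of Dicer1 was -0.26 ± 0.17 (SE, DESeq2 adjusted p = 0.567). Each result is therefore given with and without the library labelled Rx-Dicer 2. That library was singled out by its Dicer1 count with the members' levels already known, so calls made without it are no independent support.

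Most member transcripts were more abundant in the libraries labelled Rx-Dicer 1 and 3 than in any control, and not in the library labelled Rx-Dicer 2. The DESeq2 Wald test, called at an adjusted p under 0.05 and a ratio over 5 to 4 in either direction, found 5 of 33 members higher and 0 lower. Of all 17127 genes tested, 1.75% were called higher and 1.18% lower. The 5 were Mpeg1, Cx3cr1, Csf1r, Ctss and Apoe. At an unadjusted p under 0.05 there were 24 members higher and 0 lower, against 6.96% of all tested genes higher. The log2 fold change was above 0 for 32 of 33 members, with a median of 1.00, whereas the median of all tested genes was -0.00090. One member, Siglech, had too few counts for an adjusted p. In bulk tissue, more macrophages and more RNA per macrophage cannot be told apart.

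The calls depended on the tool and on single libraries. In a single simulated set of counts, built from DESeq2's own estimates of spread, DESeq2 made far more wrong calls than its threshold allows. That set was not a test of the members. The quasi-likelihood test of edgeR called 0 of the 32 members it tested, although 18 had an unadjusted p under 0.05, all higher, against 7.04% of the genes it tested, and its smallest adjusted p was 0.176. That test called 8 of 17954 genes in all, or 0.0446%. Without the library labelled Rx-Dicer 2, DESeq2 called 21 of 33 members higher, the 5 above among them, and 0 lower, against 2.55% of 16819 genes called higher. The median log2 fold change of the members was then 1.27. Without Rx-Dicer 1 only Mpeg1 was called and the median was 0.57, and Mpeg1 was also the only call without Rx-Dicer 3, control 2 or control 3. Without control 1 there were 3 calls, Cx3cr1, Mrc1 and Mpeg1.

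**Figure D1:**
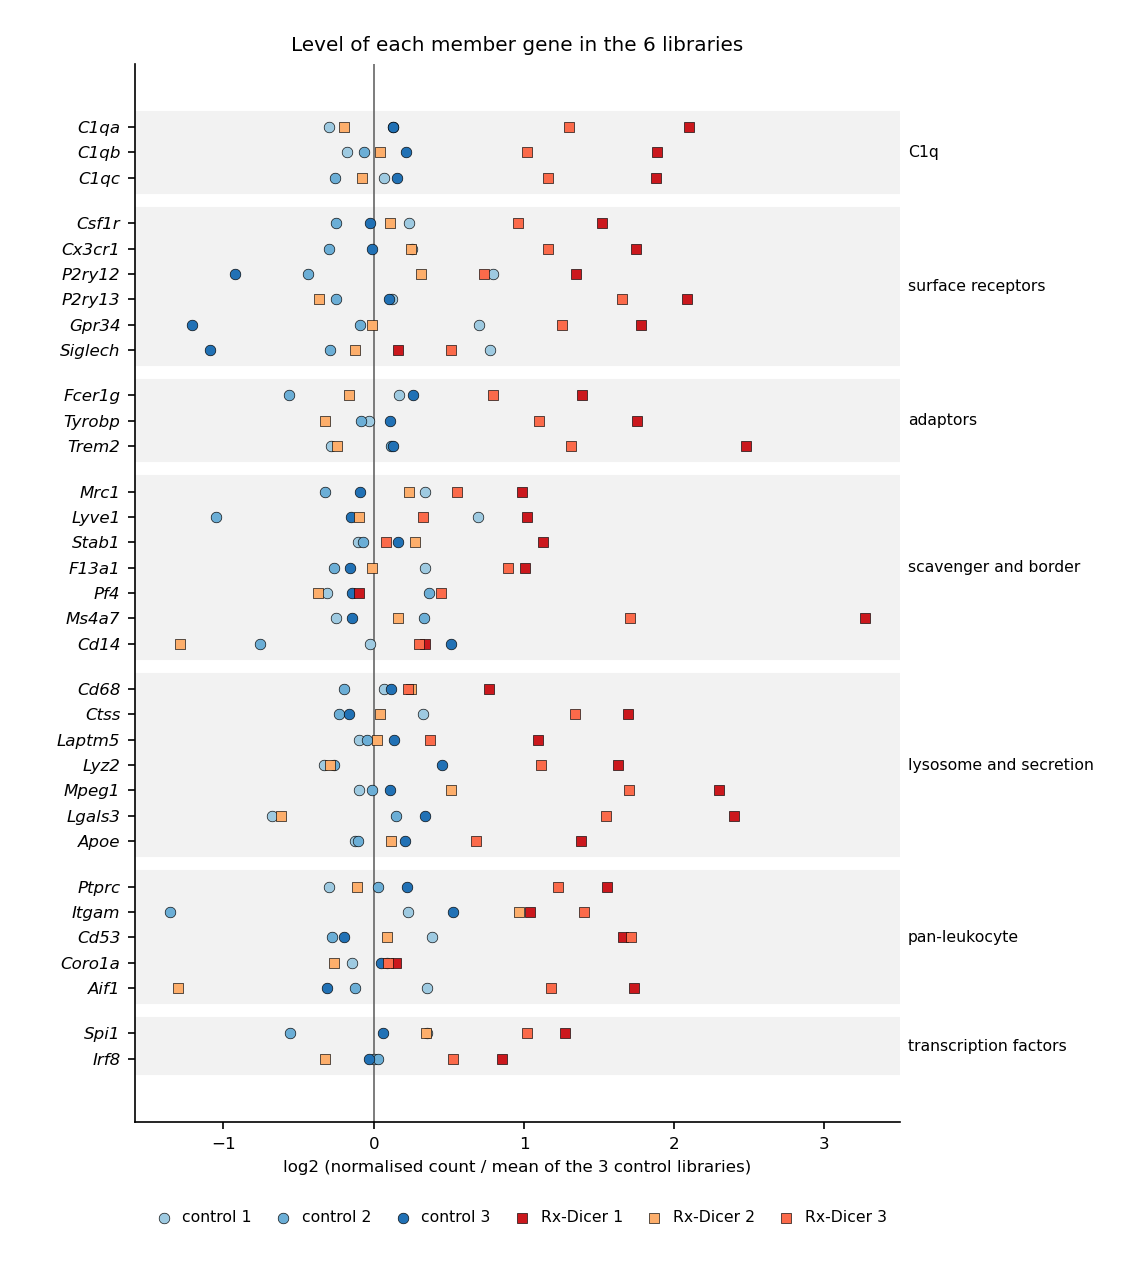
Level of each of the 33 members in the 6 libraries, as the log2 ratio of its normalised count to the mean of the 3 control libraries (circles, controls; squares, Rx-Dicer), grouped by role. Rx-Dicer 1 is the highest library for 28 members, and Rx-Dicer 2 lies within the range of the controls for 22.

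The pattern across libraries was shared by most members. Rx-Dicer 1 was the highest of the 6 libraries for 28 of 33 members, against 15.9% of all tested genes, and Rx-Dicer 3 was the highest for Pf4, Itgam and Cd53. A control library was the highest for Siglech and Cd14. Rx-Dicer 1 and 3 both lay above all 3 controls for 27 members, against 13.9% of all tested genes. The level in Rx-Dicer 1 was at least 2 times the control mean for 26 members, that in Rx-Dicer 3 for 18 and that in the library labelled Rx-Dicer 2 for 0, against 3.57%, 2.45% and 2.79% of all tested genes. This last library lay within the control range for 22 members, above it for 4 (Mpeg1, Cd68, Itgam and Stab1) and below it for 7. Of all tested genes it lay within that range for 38.6%, above it for 29.7% and below it for 31.7%. The median ratio of a member to its control mean was 2.87 in Rx-Dicer 1, 0.992 in Rx-Dicer 2 and 2.03 in Rx-Dicer 3. All 3 Rx-Dicer values lay above all 3 control values for 3 members (Mpeg1, Cd68 and Itgam), a count near the 8.55% of all tested genes for which this held.

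Counts of the members were also summed per library. They amounted to 209, 195 and 228 CPM in the controls and to 507, 224 and 326 CPM in Rx-Dicer samples, a ratio of group means of 1.67. On the log2 scale this ratio was 0.74, and 0.98 without the library labelled Rx-Dicer 2. The controls averaged 210 ± 16.6 CPM and the Rx-Dicer samples 352 ± 143 CPM (SD, n = 3 each), so the Rx-Dicer libraries were the more unequal. Apoe alone made up 26.8 to 31.8% of these counts. Without Apoe, Lgals3, Coro1a, Stab1 and Pf4, which neural cells, vessels, megakaryocytes or other cells also express, the sums were 94.8, 72.4 and 89.1 CPM in the controls and 248, 91.8 and 160 CPM in Rx-Dicer samples, a ratio of 1.95. The share of total counts was small in every library, and was above all controls in 2 of 3 Rx-Dicer libraries for each of these sets.

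**Figure D2:**
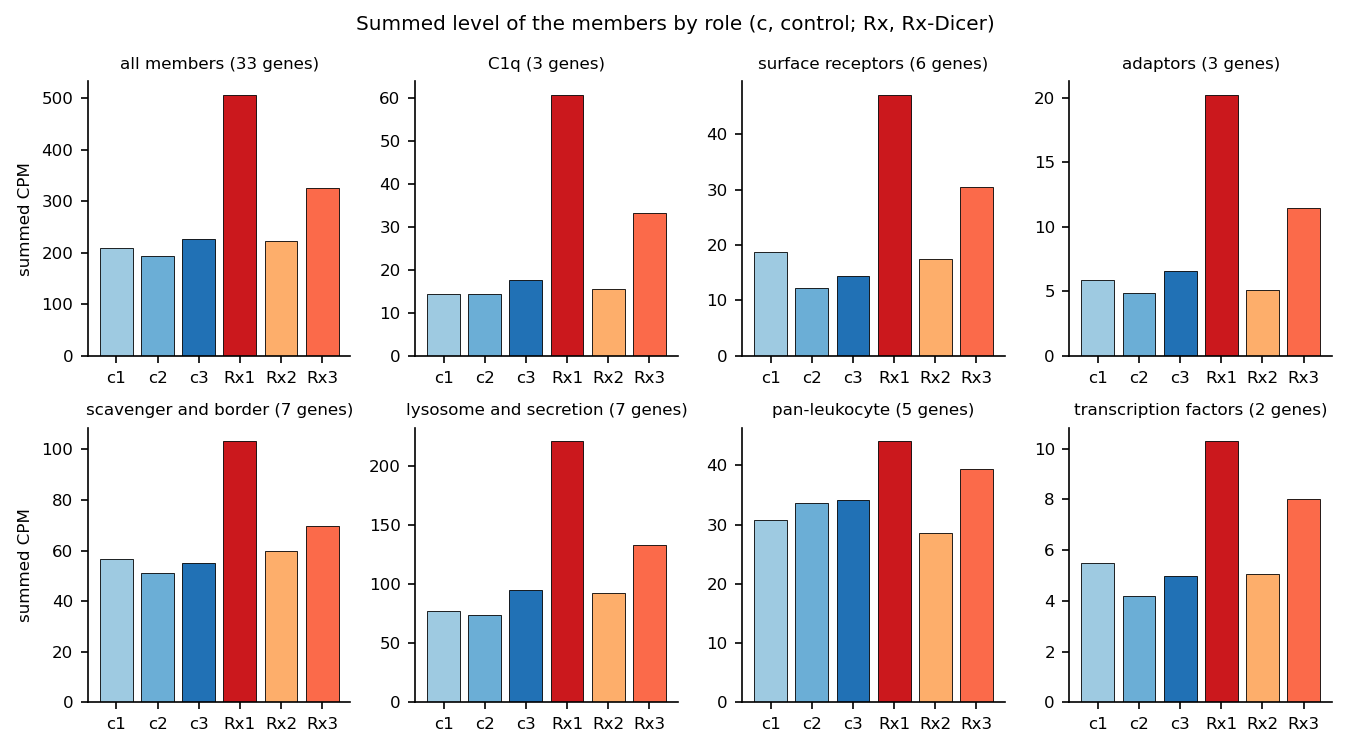
Summed CPM of all 33 members and of each role group in the 3 control (c1 to c3) and 3 Rx-Dicer (Rx1 to Rx3) libraries. For all members the Rx-Dicer bars stand at 507, 224 and 326 CPM, and the controls at 195 to 228 CPM.

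PU.1, encoded by the member Spi1, binds purine-rich words in the promoters of many macrophage genes, so start-site sequences were examined. RefSeq windows on GRCm38.p6, from 250 bases before to 50 bases after a start site, were at hand for 26 members (33 windows). There was none for C1qa, Cd14, Csf1r, Gpr34, Lyve1, Spi1 and Tyrobp. The word GAGGAAGT, on either strand, stood in 5 of the 33 member windows (15.2%) and in 3.20% of all 32851 windows. Its first 6 letters, GAGGAA, which every GAGGAAGT contains, stood in 20 member windows (60.6%) and in 28.3% of all windows. The members with the longer word were C1qc, Cd53, Ctss, F13a1 and Pf4. A match is a string of letters and does not show binding. The stretches below show the 4 called members that have a window, Mpeg1, Cx3cr1, Apoe and Ctss, from 250 bases before the start site to 6 bases after it, 5′ to 3′ on the strand of the gene, with a match to either word on either strand in capitals.
Mpeg1, chr19:12460520-12460775, plus strand: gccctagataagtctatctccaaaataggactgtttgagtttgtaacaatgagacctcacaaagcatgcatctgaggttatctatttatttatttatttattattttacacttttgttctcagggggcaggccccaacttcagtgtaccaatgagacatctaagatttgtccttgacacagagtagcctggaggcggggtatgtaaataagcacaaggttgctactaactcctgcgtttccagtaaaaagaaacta
Cx3cr1, chr9:120068291-120068546, minus strand: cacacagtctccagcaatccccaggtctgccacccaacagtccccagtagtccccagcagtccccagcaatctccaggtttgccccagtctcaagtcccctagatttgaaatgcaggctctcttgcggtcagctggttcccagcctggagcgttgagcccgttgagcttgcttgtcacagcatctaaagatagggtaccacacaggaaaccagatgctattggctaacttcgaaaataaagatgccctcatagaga
Apoe, chr7:19699183-19699438, minus strand: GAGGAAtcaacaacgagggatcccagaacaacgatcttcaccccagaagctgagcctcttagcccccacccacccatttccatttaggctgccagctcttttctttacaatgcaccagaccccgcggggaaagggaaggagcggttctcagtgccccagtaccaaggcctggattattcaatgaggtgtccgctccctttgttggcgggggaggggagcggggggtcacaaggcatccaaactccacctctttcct
Ctss, chr3:95526536-95526791, plus strand: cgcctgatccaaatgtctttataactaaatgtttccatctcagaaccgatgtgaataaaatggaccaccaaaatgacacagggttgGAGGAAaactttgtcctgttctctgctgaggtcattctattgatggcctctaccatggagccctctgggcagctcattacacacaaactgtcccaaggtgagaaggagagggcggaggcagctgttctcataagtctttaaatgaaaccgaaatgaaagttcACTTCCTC

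In the Ctss stretch the longer word, read on the opposite strand, covers the start site, and a GAGGAA on the gene's own strand lies further upstream. The Apoe stretch begins with GAGGAA. The Mpeg1 and Cx3cr1 windows hold neither word. Apoe has 3 RefSeq windows, and the one shown is nearest to the annotated 5′ end of the gene.

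The C1q subunits were higher in the same 2 Rx-Dicer libraries, and none passed the test with all libraries. C1qa, C1qb and C1qc encode the chains of C1q, the recognition protein of the classical complement pathway, and lie side by side on the minus strand of GRCm38 chromosome 4, between 136880129 and 136898803. C1qb, the most abundant per length, had 249, 269 and 327 normalised counts in the control libraries and 1041, 289 and 572 in Rx-Dicer samples. C1qa had 129, 174 and 174 in controls, against 682, 139 and 393 in Rx-Dicer samples. C1qc had 227, 181 and 241 in controls, then 796, 205 and 484. For each subunit the library labelled Rx-Dicer 2 lay inside the control range and the other 2 Rx-Dicer libraries above it.

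The log2 fold changes were 1.35 ± 0.63 for C1qa, 1.17 ± 0.52 for C1qb and 1.19 ± 0.55 for C1qc (SE), with DESeq2 adjusted p of 0.306, 0.271 and 0.293. Without the library labelled Rx-Dicer 2 all 3 were called, at log2 fold changes of 1.76, 1.52 and 1.57 and adjusted p of 9.63e-07, 1.95e-05 and 2.34e-06. The call also turned with a filter on low counts: when only genes with 10 counts in 3 samples entered the fit, the adjusted p were 0.0494, 0.0360 and 0.0481. The 3 chains kept similar proportions. C1qb made up 39.5 to 45.7% of the C1q counts of a library, C1qc 29.0 to 37.5% and C1qa 21.4 to 27.9%, and the genotypes overlapped in each of these shares.

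Among the surface receptors, Csf1r and Cx3cr1 were called higher. Csf1r encodes the receptor for CSF1 and IL-34, on which macrophage survival depends. It had 385, 275 and 322 normalised counts in the controls and 938, 354 and 636 in Rx-Dicer samples, a log2 fold change of 0.98 ± 0.29 (SE, DESeq2 adjusted p = 0.0330, edgeR adjusted p = 0.271). Cx3cr1, the receptor for the neuronal chemokine fractalkine, had 283, 194 and 236 in the control libraries and 796, 282 and 531 in Rx-Dicer samples. Its log2 fold change was 1.18 ± 0.31 (DESeq2 adjusted p = 0.0101, edgeR adjusted p = 0.236). In both genes the library labelled Rx-Dicer 2 fell inside the control range, at 354 and 282. Without it the log2 fold changes were 1.27 and 1.49, with adjusted p of 3.09e-05 and 3.06e-06. Cx3cr1 lies on GRCm38 chromosome 9, 119901616 to 120069879, minus strand, and overlaps Gorasp1, Csrnp1 and Xirp1 on the same strand, where reads shared by genes were left uncounted.

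Receptors that mark microglia in the adult brain had low counts in these E11.5 libraries, and no other stage was sequenced for comparison. P2ry12 and P2ry13, purinergic receptors, averaged 30.3 and 15.7 normalised counts in controls, Gpr34, a lysophospholipid receptor, 19.5 and Siglech, a sialic acid-binding lectin, 9.98. Their log2 fold changes were 0.88, 1.45, 1.20 and 0.23, and none was called with all libraries. P2ry13 alone of these 4 was called without the library labelled Rx-Dicer 2 (1.89 ± 0.49, DESeq2 adjusted p = 0.00691). Siglech had 17.1, 8.15 and 4.70 in controls, against 11.1, 9.17 and 14.3 normalised counts in Rx-Dicer samples, and the groups overlapped.

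The immunoreceptor adaptors showed the same division of libraries. Tyrobp encodes DAP12, the adaptor through which TREM2 signals, and was the most abundant of the group per length. It had 110, 106 and 121 normalised counts in the controls and 378, 89.7 and 241 in Rx-Dicer samples, a log2 fold change of 1.07 ± 0.39 (DESeq2 adjusted p = 0.124). Trem2, a lipid-sensing receptor used in the uptake of debris, had 31.8, 41.8 and 42.3 in the control libraries and 215, 32.6 and 96.0 in Rx-Dicer samples. Its log2 fold change of 1.57 ± 0.53 had an adjusted p of 0.0792. Fcer1g, the common γ chain of Fc receptors, had a log2 fold change of 0.81 ± 0.38 (adjusted p = 0.304). None of the 3 was called with all libraries, and all 3 were called without the library labelled Rx-Dicer 2, with adjusted p of 3.14e-05 for Tyrobp, 0.000729 for Trem2 and 0.0438 for Fcer1g.

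Genes of scavenger and border-associated macrophages had the lowest median log2 fold change of the 7 role groups. It was 0.57, against 0.69 for the lineage transcription factors and 1.02 to 1.19 for the remaining groups, and none of the 7 was called. The group was mixed, with log2 fold changes from -0.044 to 2.23. Ms4a7, a tetraspan membrane protein of border macrophages, had the smallest p of the group and the largest change of any member. It had 6.11, 9.17 and 6.58 normalised counts in controls, against 70.3, 8.15 and 23.8 in Rx-Dicer samples (log2 fold change 2.23 ± 0.78, DESeq2 adjusted p = 0.101). Its counts were too low for the edgeR filter. Pf4, a chemokine of platelets that embryonic macrophages also make, was the most abundant per length. It had 402, 645 and 451 in the controls and 466, 385 and 680 in Rx-Dicer samples, fully overlapping, with a log2 fold change of 0.031 ± 0.24 (adjusted p = 0.987).

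Mrc1, the mannose receptor CD206, had 500, 315 and 370 normalised counts in the control libraries and 782, 465 and 579 in Rx-Dicer samples, a log2 fold change of 0.63 ± 0.23 (DESeq2 adjusted p = 0.132). F13a1, a coagulation factor subunit, had a log2 fold change of 0.70, Stab1, a scavenger receptor, 0.57, and Lyve1, a hyaluronan receptor, 0.50. Cd14, the co-receptor for bacterial lipopolysaccharide, had -0.044 and was the only member below 0. Without the library labelled Rx-Dicer 2, Mrc1, F13a1 and Ms4a7 were called (adjusted p 0.0491, 0.00228 and 0.0128) and the other 4 were not. Counts of Mrc1 per count of Csf1r were 1.30, 1.14 and 1.15 in controls, 0.834 and 0.910 in Rx-Dicer 1 and 3, and 1.31 in the library labelled Rx-Dicer 2. Counts of Mpeg1 per count of Csf1r were 0.311, 0.463 and 0.429 in controls, against 0.672, 0.519 and 0.656 in Rx-Dicer samples. The ratio of Cx3cr1 to Csf1r was 0.704 to 0.737 in controls and 0.798 to 0.848 in Rx-Dicer samples. For F13a1 (0.901 to 1.07 in controls, 0.693 to 0.945 in Rx-Dicer samples), Trem2 (0.0825 to 0.152, 0.0922 to 0.229) and the sum of the C1q genes (1.57 to 2.30, 1.79 to 2.68) the genotypes overlapped. These ratios are descriptions and were not tested.

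Genes of lysosomes, secretion and phagocytosis included 3 of the 5 calls. Mpeg1 encodes perforin-2, a pore-forming protein of phagocytes, and lies on GRCm38 chromosome 19, 12460779 to 12465283, plus strand. It had 120, 127 and 138 normalised counts in the controls and 630, 183 and 417 in Rx-Dicer samples, with no overlap between the genotypes. Its log2 fold change was 1.68 ± 0.34 (3.20-fold, DESeq2 adjusted p = 0.000254, edgeR adjusted p = 0.176). Even the library labelled Rx-Dicer 2 lay above all 3 controls in this gene. Without that library the log2 fold change was 2.03 ± 0.25 (adjusted p = 8.07e-13).

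Ctss encodes cathepsin S, a protease of antigen-presenting cells (GRCm38 chromosome 3, 95526786 to 95556403, plus strand). It had 143, 96.8 and 101 normalised counts in the control libraries and 367, 117 and 288 in Rx-Dicer samples, a log2 fold change of 1.18 ± 0.36 (DESeq2 adjusted p = 0.0396, edgeR adjusted p = 0.275). A pseudogene, Hmgb1-ps5, overlaps it on the same strand. Apoe encodes the lipid carrier apolipoprotein E, which neural progenitors and glia also make, and was the most abundant member per length. It lies on GRCm38 chromosome 7, 19696109 to 19699188, minus strand. It had 2357, 2388 and 2968 in controls, against 6683, 2778 and 4117 in Rx-Dicer samples, a log2 fold change of 0.82 ± 0.25 (DESeq2 adjusted p = 0.0389, edgeR adjusted p = 0.282). In both genes the library labelled Rx-Dicer 2 lay inside the control range and the other 2 above it, and without it the adjusted p were 4.55e-06 and 0.000249.

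The other 4 genes of this group were not called with all libraries. Their log2 fold changes were 1.56 for Lgals3 (galectin-3), 1.02 for Lyz2 (lysozyme of myeloid cells), 0.57 for Laptm5 (a lysosomal membrane protein of blood cells) and 0.44 for Cd68 (a lysosomal glycoprotein). Cd68 had 220, 182 and 226 normalised counts in the controls and 356, 249 and 245 in Rx-Dicer samples, without overlap but with a small difference. Lgals3 and Lyz2 were called without the library labelled Rx-Dicer 2, with adjusted p of 0.0133 and 0.00181, and Laptm5 and Cd68 were not.

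**Figure D3:**
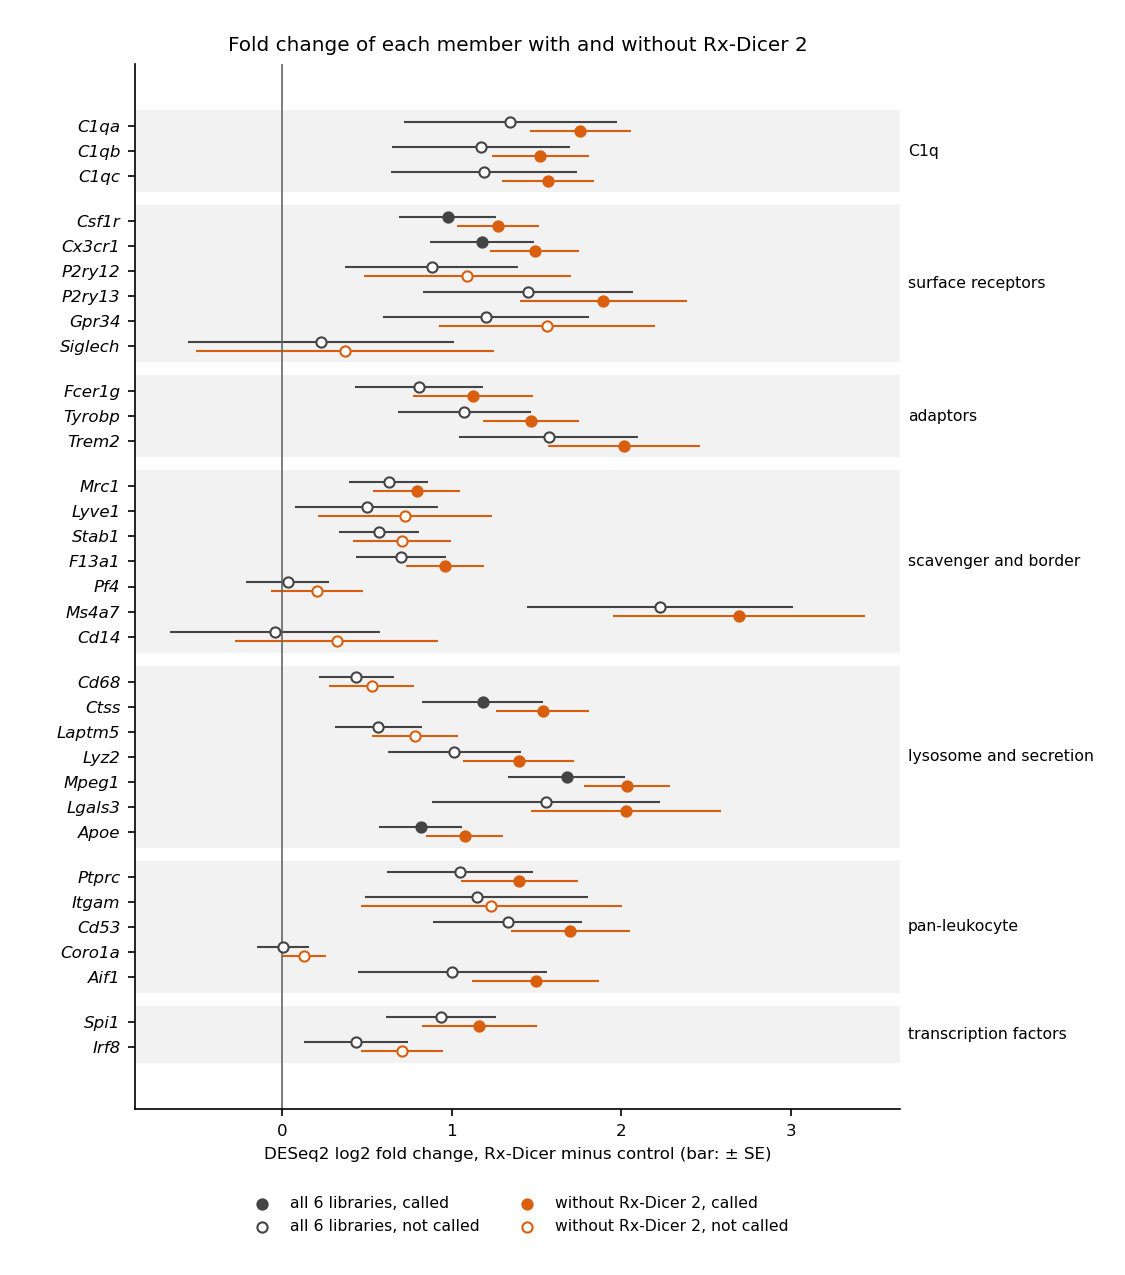
DESeq2 log2 fold change of each member (Rx-Dicer minus control, bars ± SE) with all 6 libraries (grey) and without the library labelled Rx-Dicer 2 (orange). Filled points are called: 5 with all libraries and 21 without that library.

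Of the pan-leukocyte and cytoskeletal genes, 0 of 5 were called with all libraries. Ptprc encodes CD45, a phosphatase on the surface of leukocytes. It had 36.6, 45.8 and 52.6 normalised counts in the control libraries and 132, 41.8 and 106 in Rx-Dicer samples (log2 fold change 1.05 ± 0.43, DESeq2 adjusted p = 0.199). Cd53, a leukocyte tetraspanin, had 55.0, 34.6 and 36.6 in controls, against 133, 44.8 and 138 in Rx-Dicer samples (1.33 ± 0.44, adjusted p = 0.0690). Aif1, which encodes the calcium-binding protein IBA1 used to stain microglia, had 61.1, 43.8 and 38.5 in the controls and 159, 19.4 and 108 in Rx-Dicer samples (1.00 ± 0.55, adjusted p = 0.449). In Aif1 the library labelled Rx-Dicer 2 was the lowest of all 6. All 3 genes were called without it, with adjusted p of 0.00338, 0.000152 and 0.00431.

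Coro1a, an actin-binding coronin of leukocytes that developing neurons also express, was the most abundant pan-leukocyte gene per length. It had 1132, 1328 and 1291 normalised counts in the control libraries and 1385, 1040 and 1338 in Rx-Dicer samples, with a log2 fold change of 0.0049 ± 0.15 (DESeq2 adjusted p = 0.996). Itgam, the CD11b integrin chain, was rare, at 12.2, 4.07 and 15.03 in controls, against 21.4, 20.4 and 27.6 in Rx-Dicer samples. Its Rx-Dicer values all lay above the controls, but the log2 fold change of 1.15 ± 0.66 had an adjusted p of 0.478.

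Both lineage transcription factors had positive, uncalled changes. Spi1 (PU.1) had 111, 59.1 and 91.1 normalised counts in the controls and 211, 111 and 177 in Rx-Dicer samples, a log2 fold change of 0.94 ± 0.32 (DESeq2 adjusted p = 0.0932). Irf8, a partner of PU.1 in the macrophage lineage, had 120, 122 and 117 in the control libraries and 216, 95.8 and 173 in Rx-Dicer samples, a log2 fold change of 0.44 ± 0.30 (adjusted p = 0.626). Spi1 was called without the library labelled Rx-Dicer 2 (adjusted p = 0.0211), and Irf8 was not (adjusted p = 0.0720).

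Other genes of the macrophage lineage, none of them a member, followed the same order of libraries by their median. Of 40 such genes, 3 were called higher and 0 lower, against 1.75% and 1.18% of all tested genes. Their median log2 fold change was 0.70. Over the 37 with an adjusted p, the median ratio to the control mean was 2.11 in Rx-Dicer 1, 1.06 in Rx-Dicer 2 and 1.58 in Rx-Dicer 3. By the sum of the 40 genes the groups differed little, with a ratio of group means of 1.10. It was 271 to 305 CPM in controls, against 325, 304 and 319 CPM in Rx-Dicer samples. A sum weighs abundant genes most, and genes that other cells also express were not taken out of this one. The calls were Fcgr1, a high-affinity IgG receptor (2.37-fold, DESeq2 adjusted p = 0.0402), Vav1, a signalling protein of blood cells (log2 fold change 1.22 ± 0.35, adjusted p = 0.0246), and Maf, a transcription factor (0.66 ± 0.21, adjusted p = 0.0465). The edgeR test called 0 of the 37 it tested, with a smallest adjusted p of 0.202. With the library labelled Rx-Dicer 2 left out, DESeq2 called 9 higher, Fcgr1 and Vav1 among them, against 2.55% of all tested genes. It called 1 lower, Sall1, which neural progenitors also express, while Maf was not called (adjusted p = 0.0922). Of the 40 genes, 38 had a log2 fold change above 0 and 2 below. Tmem119, a marker of adult microglia named here after its values were seen, had 441, 359 and 816 normalised counts in controls. It had 686, 528 and 323 in Rx-Dicer samples, an order unlike that of the members. Which cells of the tissue made this transcript was not tested.

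Ligands were examined next to the receptors. Of 16 myeloid growth factors and chemokines, Csf1, a ligand of CSF1R, was the only call, and only 6 of the 16 had an adjusted p. It had 404, 351 and 377 normalised counts in the controls and 654, 533 and 633 in Rx-Dicer samples, a log2 fold change of 0.69 ± 0.16 (DESeq2 adjusted p = 0.00272, edgeR adjusted p = 0.149), and 0.78 ± 0.15 without the library labelled Rx-Dicer 2. The library labelled Rx-Dicer 2 lay above all controls for the ligand, whereas for the receptor it lay inside their range. Il34, the other ligand, had 4.08 to 8.15 normalised counts in a library, and Csf2 had 0 counts in all 6. Cx3cl1, the ligand of CX3CR1, had a log2 fold change of 0.31 ± 0.23 (adjusted p = 0.666). At an unadjusted p under 0.05, 5 genes of this list were higher by DESeq2 (Csf1, Spp1, Ccl2, Ccl3 and Ccl4) and 0 lower. By edgeR 3 of the 7 it tested were higher (Csf1, Spp1 and Ccl3). Of all genes with an adjusted p, 6.96% were higher by DESeq2, and of all that edgeR tested 7.04%. The chemokine genes Ccl2, Ccl3 and Ccl4, named after their values were seen, had too few counts for an adjusted p. They had 0 to 6.11 normalised counts in a control library and 4.08 to 19.7 in an Rx-Dicer library, and for each gene all 3 Rx-Dicer values lay above the controls. This held for 5 of the 16 genes of the list, and for 8.55% of all genes with an adjusted p, which Ccl2, Ccl3 and Ccl4 lack. Of the 15 genes of the list with a count, 12 had a log2 fold change above 0 and 3 below, down to -2.64.

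**Figure D4:**
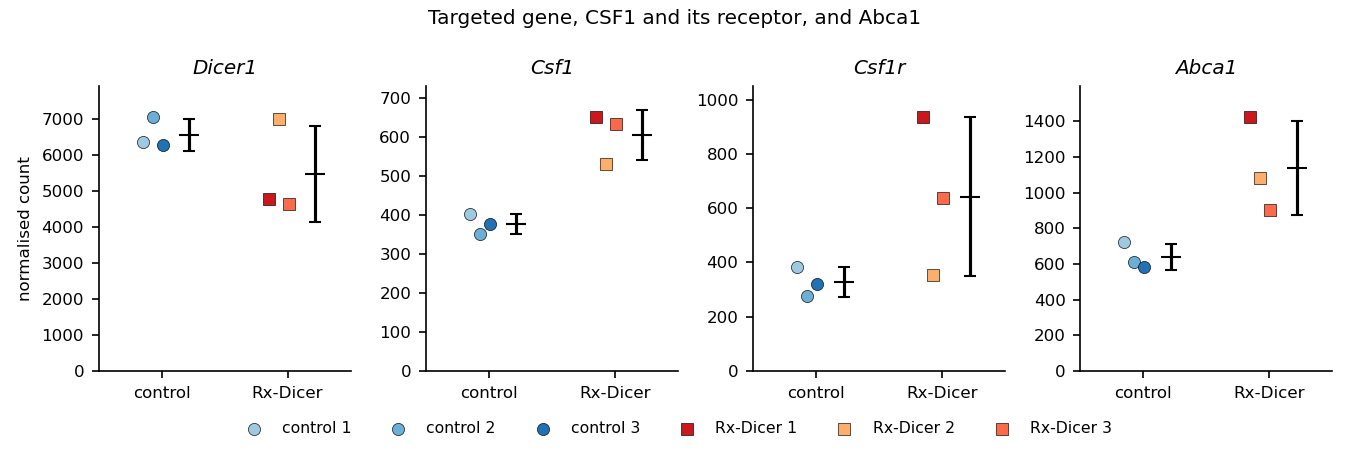
Normalised counts of Dicer1, Csf1, Csf1r and Abca1 in the 6 libraries (circles, control; squares, Rx-Dicer), with mean and SD of 3 libraries beside each group. Csf1 was 533 to 654 in Rx-Dicer samples and 351 to 404 in controls, whereas Csf1r of the library labelled Rx-Dicer 2 (354) lay among the controls.

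Lists of genes for the uptake of dead cells and for lysosomes had medians nearer to that of all genes. Of 24 dead cell recognition and engulfment genes, 1 was called, Abca1, a cholesterol exporter. It had 723, 611 and 583 normalised counts in the control libraries and 1426, 1081 and 904 in Rx-Dicer samples (log2 fold change 0.83 ± 0.19, DESeq2 adjusted p = 0.00147, edgeR adjusted p = 0.158), and all 3 Rx-Dicer libraries lay above the controls. The median over that list was 0.098, and 1.75% of all tested genes were called higher. Of 20 lysosomal genes 0 were called. Their median was 0.23, with 19 genes above 0 and 1 below. At an unadjusted p under 0.05, 6 were higher and 0 lower by DESeq2, and 5 were higher by edgeR. Of all tested genes, 6.96% were higher at that p by DESeq2 and 7.04% by edgeR. Of 14 disease-associated microglia genes 0 were called, with 2 (Ctsd and Spp1) at an unadjusted p under 0.05 by DESeq2 and 1 (Spp1) by edgeR. Without the library labelled Rx-Dicer 2 the calls were 2, 6 and 3 in these lists, all higher, against 2.55% of all tested genes. They included the scavenger receptor gene Cd36 and the cathepsin genes Ctsb and Ctsd, which were also named after their values were seen.

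Lists for other cells of the dissected tissue were set beside the members. By DESeq2, 0 genes were called in the lists for megakaryocytes and platelets (8 genes, Pf4 among them), red cells (12), endothelium and pericytes (13), mesenchyme and meninges (12), surface ectoderm (8), and neutrophils, mast cells and lymphoid cells (14). Of the last list only 4 genes had an adjusted p, so that the other 10 could not be called, and 1 platelet gene had none either. At an unadjusted p under 0.05 there were 0, 0, 0, 1, 3 and 2 genes by DESeq2, and 0, 0, 0, 1, 2 and 1 by edgeR. These genes, named after their values were seen, included Lum, higher, in the mesenchymal list and Krt5, Krt14 and Trp63, lower, in that of the ectoderm. The others were Prtn3, lower, and S100a9, higher, among the other leukocytes. Of 17127 genes with an adjusted p, 1192 were higher and 1047 lower at that unadjusted p by DESeq2. S100a9, a neutrophil protein, was called higher without the library labelled Rx-Dicer 2 (adjusted p = 0.0263), and no other gene of these lists was. Red cell counts summed to 10404 to 23409 CPM in controls, against 8827 to 23260 CPM in Rx-Dicer samples, highest in control 2 and Rx-Dicer 3. Mesenchymal counts summed to 875 to 1977 CPM and 1357 to 1793 CPM, and no gene of either list was at 0. Endothelial counts summed to 230 to 259 CPM in the controls and to 297, 318 and 135 CPM in Rx-Dicer samples, so that Rx-Dicer 3, which was high in macrophage transcripts, was low in these. Of the list for other leukocytes, Cd3e, Cma1, Elane, Ly6g, Mcpt4, Nkg7 and S100a8 were at 0 in at least 1 library. Its sum was 5.87 to 8.38 CPM in the control libraries and 6.08 to 9.43 CPM in Rx-Dicer samples. Platelet counts summed to 29.4 to 55.9 CPM in controls, against 33.01 to 47.9 CPM in Rx-Dicer samples (Gp1bb at 0 in at least 1 library), and surface ectoderm counts to 17.3 to 78.8 CPM and 28.6 to 44.9 CPM (Krt14 at 0 in at least 1 library). By its sum, none of these 6 lists put Rx-Dicer 1 first, Rx-Dicer 3 next and the library labelled Rx-Dicer 2 among the controls. The lysosomal and disease-associated microglia lists did so. Lysosomal counts summed to 1241 to 1405 CPM in controls, against 1697, 1352 and 1477 CPM in Rx-Dicer samples. Disease-associated counts summed to 438 to 499 CPM in controls, against 622, 439 and 524 CPM in Rx-Dicer samples. The part of tissue composition in the members' difference was not tested.

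Of 10 telencephalic neuroepithelium markers, Six3 was called higher, and Fabp7 and Pax6 lower. Their log2 fold changes were 1.27 ± 0.22, -0.76 ± 0.22 and -0.43 ± 0.12 (DESeq2 adjusted p 6.27e-06, 0.0307 and 0.0127). The edgeR test called 0 of the 10 markers, with a smallest adjusted p of 0.133. Of all genes tested by DESeq2, 1.75% were called higher and 1.18% lower. Six3 of the library labelled Rx-Dicer 2 was 3018 normalised counts, above all 3 controls (684 to 1357), in contrast to its macrophage transcripts. Six3 and Pax6 were also called without that library, and Fabp7 was not (adjusted p = 0.226).

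**Figure D5:**
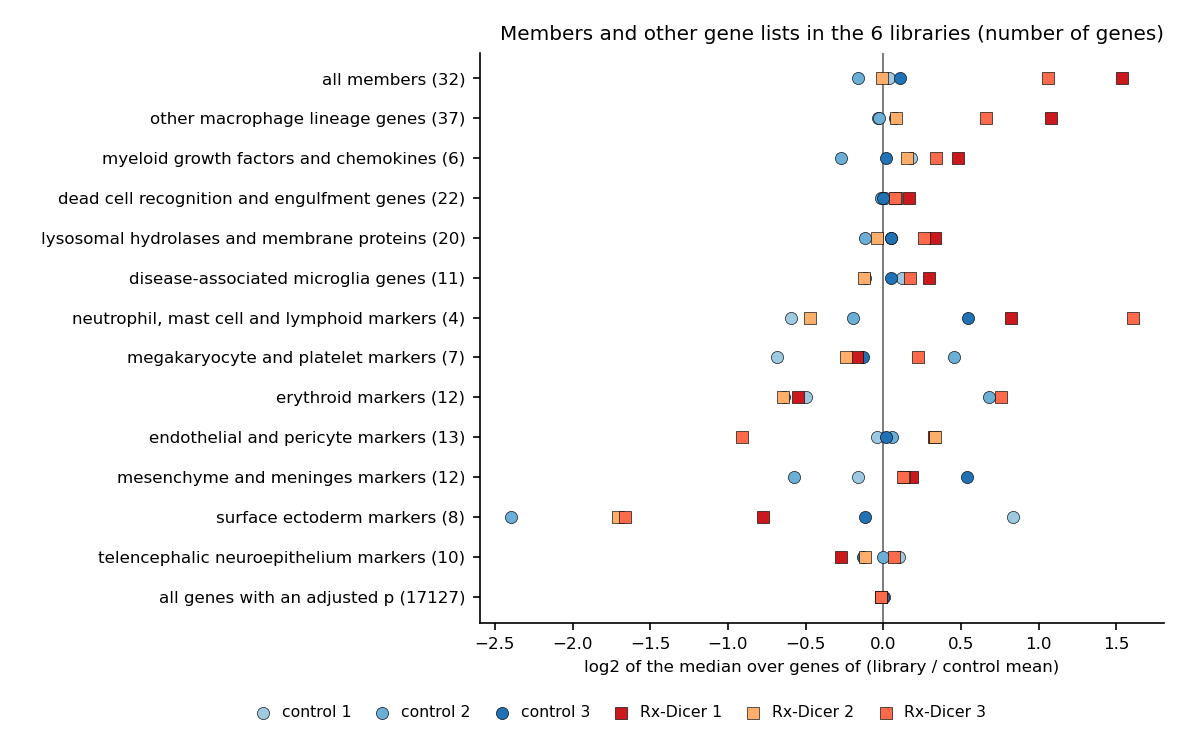
Median over the genes of each list of the ratio of a library to the control mean, on a log2 scale, with the number of genes that had an adjusted p in brackets. The members and the other macrophage genes share an order, with Rx-Dicer 1 highest, Rx-Dicer 3 next and Rx-Dicer 2 among or next to the controls. The lists of myeloid growth factors and chemokines, lysosomal genes and disease-associated microglia genes have this order too. Their ratios are smaller, at 1.39, 1.26 and 1.23 in Rx-Dicer 1.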

How the data were processed

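Gene expression was measured by directional RNA-seq (100 bp paired-end reads) in 3 control and 3 Rx-Dicer samples, grouped by their titles. The deposited files hold unnormalised read counts for each Ensembl gene. Per the labels and methods, the authors checked reads with FastQC (2.6.14 as labelled), trimmed them with Trim Galore (0.6.5), aligned them to GRCm38.p6 with HISAT2 and counted them with HTSeq (0.12.4) in union mode on the reverse strand, so antisense genes share no reads and reads of overlapping genes on the same strand are left out. Each sample had 2 files. They differed by a chi-square per degree of freedom of 1.11 to 1.47, against 20.5 to 29.6 between samples of a group, and were summed as repeat runs, with n = 3 per genotype. Rows that name no gene held 24.9 to 31.0% of the tallied reads of a library and were left out. The share was highest in the library labelled Rx-Dicer 2, and 30.4% in Rx-Dicer 3. Of the reads placed in that library labelled Rx-Dicer 2, 13.2% lay in no annotated feature, against 8.15 to 10.5% in the other libraries.

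Genotypes were compared across all genes with DESeq2 (1.42.0, R 4.3.3), the tool of the study: a Wald test on a model with genotype alone, log2 fold changes without shrinkage, p-values adjusted by Benjamini-Hochberg after independent filtering. Genes were called below an adjusted p of 0.05 with a ratio over 5 to 4 in either direction. edgeR (4.0.16, quasi-likelihood, TMM scaling) was run as an alternative after removal of genes without 10 counts in 3 or more samples. Other alternatives were other scalings, filters and thresholds, each file alone, the replicate number as a block and each sample left out. On a single set of simulated counts with known changes both tools found most of the changed genes with the right sign. In that set wrong calls were more frequent than the threshold allows, by far for DESeq2 and slightly for edgeR. A single set cannot show whether the slight excess for edgeR would recur. Levels per length are normalised counts per kilobase of annotated exon (GENCODE, GRCm38).

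The members, their role groups and the other lists were chosen with earlier results of these data known, so no list was tested as a set. Values in every library are given for called members, for the member of each role with the smallest p and that with the highest level per length, and for C1qa, C1qb, C1qc, Csf1r, Spi1, Ptprc, Tyrobp and Aif1. Outside the members, called genes of each list are named. A sum without 5 members that other cells also express was added after the data had been seen. Promoter sequences are from RefSeq (GRCm38.p6). Precision is limited by the counts of rare members, 12 of which averaged under 50 normalised counts in controls.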

Additional observations from a re-analysis of the deposited data

How the results depend on the processing

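The count of 5 members called higher was 0 with edgeR, 2 without independent filtering and 8 at adjusted p under 0.1, and 4 to 7 under the other planned scalings, filters and files. Leaving out 1 sample at a time gave 1 to 21 calls, 21 without the library labelled Rx-Dicer 2 and 1 to 3 without any other sample. The count of members called lower was 0 throughout. The median log2 fold change of the members was 0.57 to 1.27 when 1 sample was left out, lowest without Rx-Dicer 1 and highest without Rx-Dicer 2, and 0.88 to 1.01 otherwise. The log2 ratio of the summed member level, 0.74, was 0.38 to 0.98 when 1 sample was left out. It was 0.70 without Apoe and Lgals3 and 0.96 without Apoe, Lgals3, Coro1a, Stab1 and Pf4. In the other lists, 6 genes were called higher and 2 lower. These counts were 0 and 0 with edgeR, 11 higher at adjusted p under 0.1 and 1 lower without independent filtering. They were 3 to 21 and 1 to 4 when 1 sample was left out, with 21 higher without Rx-Dicer 2. Why these counts shift was not tested. Independent filtering sets which genes enter the adjustment, so its removal adds genes by construction.

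The sign of the log2 fold change turned for 4 members near 0, none of them called. With the first file alone Pf4 had -0.040 and Coro1a -0.039. When 1 sample was left out, Pf4 ranged from -0.23 to 0.26, Coro1a from -0.074 to 0.13, Cd14 from -0.32 to 0.32 and Siglech from -0.12 to 0.85. Mpeg1 was called under all 16 alternatives except edgeR.

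The shared replicate numbers come from the titles. Correlations of same-numbered samples were 0.181, 0.0167 and -0.147, and those of differently numbered samples ranged from -0.178 to 0.184. No pairing by number was seen, but so few samples cannot exclude one. With the replicate number as a block, 4 members were called higher (Csf1r, Cx3cr1, Mrc1 and Mpeg1), 3 of them among the 5, and the median log2 fold change was 0.88. Coro1a then had -0.0027, and the other lists had 7 genes higher and 1 lower under the block.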
